A study of Mus musculus with 32 samples.

Results

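The V2r cluster from Vmn2r8 to Vmn2r17 is a run of 10 vomeronasal receptor genes on mouse chromosome 5. Its members were taken by gene name from the gene tables of the mouse vomeronasal organ (VNO), where all 10 were listed and all 10 passed the filter on low counts. They are 10 of the 123 numbered Vmn2r genes, of which 121 passed that filter, and 10 of 49671 listed genes, of which 18382 passed it. The VNO is the chemosensory organ of the nasal septum that reads pheromones and other social cues. VNO epithelium of single mice was sequenced as ribosome-depleted total RNA at postnatal day 42. The mice, bought from the Jackson laboratory, came from 4 inbred strains, labelled C57/BL6 (B6 here), 129S6/SVEV (129), SJL/J (SJL) and SWR/J (SWR). The study's own text names the second strain 129Sv/J. Each strain gave 4 males and 4 females, so that 32 libraries fell into 8 groups of 4. No mouse carried a transgene or had a treatment stated in the labels, so strain and sex were the factors compared.

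V2rs are G protein-coupled receptors with a large extracellular domain that faces the nasal lumen on the microvilli of basal VNO neurons. They respond to peptides and proteins of urine, tears and saliva, and they couple through the G protein subunit encoded by Gnao1 to a Trpc2 channel. A basal neuron typically expresses very few V2r genes of the large families, together with co-receptors of family C, Vmn2r1 to Vmn2r7, and many basal neurons also express H2-Mv genes, a group of non-classical MHC class Ib molecules. V2r genes arose by repeated local duplication, so neighbours in a cluster resemble each other in sequence.

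The 10 genes follow their numbers along chromosome 5 of GRCm38 (mm10). Vmn2r8 lies at chr5:108791843-108808850 and Vmn2r9 at chr5:108835273-108852601. Vmn2r10 (chr5:108990063-109006527), Vmn2r11 (chr5:109043360-109059569), Vmn2r12 (chr5:109083824-109097950), Vmn2r13 (chr5:109152940-109192199), Vmn2r14 (chr5:109211534-109224708) and Vmn2r15 (chr5:109285670-109297644) follow on the same, minus, strand. Vmn2r16 (chr5:109330162-109370247) and Vmn2r17 (chr5:109419688-109458459) lie on the plus strand. In the GENCODE annotation each coding sequence has 6 exons, or 7 in Vmn2r16, and is between 2493 bases (Vmn2r12 and Vmn2r13) and 2691 bases (Vmn2r16) long. Coding identity between members ran from 86.8% for Vmn2r12 and Vmn2r16 to 96.7% for Vmn2r8 and Vmn2r9. Vmn2r11 belonged with the first pair, at 95.2% to Vmn2r9 and 95.0% to Vmn2r8, and Vmn2r12 and Vmn2r13 were 94.0% identical. Vmn2r16 and Vmn2r17 were 89.2% identical to each other, and no other member came nearer to Vmn2r16.

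This likeness bears on the counts, because the authors kept uniquely placed reads. Of the 100-base stretches of each coding sequence, 21.7% in Vmn2r11, 18.6% in Vmn2r9, 17.4% in Vmn2r14, 13.1% in Vmn2r16 and 11.6% in Vmn2r8 also occurred unchanged in a transcript of another gene. The other 5 members shared between 1.51% (Vmn2r17) and 7.46% (Vmn2r15) in this way. Read pairs that lay wholly within shared sequence could not be placed uniquely. The study sequenced paired reads, each longer than these stretches, so the shares do not measure the part of read pairs lost. Reads of every strain were placed on the B6 genome, and how far sequence or copy number differences between strains took part in the levels below was not tested. VNO tissue holds many cell types, so fewer neurons that express a receptor and less RNA per neuron cannot be told apart.

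The bases in front of the genes are shown because neighbours that are near-copies in coding sequence had unlike levels. For Vmn2r8 to Vmn2r15 the stretches below were taken from RefSeq promoter windows on GRCm38.p6 and end at the first annotated base of the gene. The 4 genes chosen are the 2 most alike in coding sequence (Vmn2r8 and Vmn2r9), the member whose level never differed beyond 2-fold between strains (Vmn2r10) and a member that was highest in B6 (Vmn2r14). Capitals mark the word GTTTTCAGA. The stretches are chr5:108808851-108809004, chr5:108852602-108852760, chr5:109006528-109006686 and chr5:109224709-109224872, all on the minus strand and written 5′ to 3′.
Vmn2r8: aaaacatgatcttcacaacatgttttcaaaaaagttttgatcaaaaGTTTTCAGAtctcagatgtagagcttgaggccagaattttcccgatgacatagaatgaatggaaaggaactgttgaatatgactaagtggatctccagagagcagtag
Vmn2r9: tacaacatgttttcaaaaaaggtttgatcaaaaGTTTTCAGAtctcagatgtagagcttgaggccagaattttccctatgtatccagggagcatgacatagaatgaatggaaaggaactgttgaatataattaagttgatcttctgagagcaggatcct
Vmn2r10: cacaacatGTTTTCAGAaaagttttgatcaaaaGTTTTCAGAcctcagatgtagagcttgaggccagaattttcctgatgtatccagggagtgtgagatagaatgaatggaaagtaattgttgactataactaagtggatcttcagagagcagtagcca
Vmn2r14: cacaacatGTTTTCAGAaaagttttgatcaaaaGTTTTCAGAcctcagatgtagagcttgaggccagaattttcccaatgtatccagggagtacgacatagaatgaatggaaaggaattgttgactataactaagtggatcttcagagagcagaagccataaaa
A search for the longest run of bases common to the members' windows, which hold 300 bases around each RefSeq start, gave GTTTTCAGA in all 10. Searched on both strands, the word was in 174 of 32851 promoter windows (0.53%) and in 4 of 107 windows of other V2r genes (3.74%). In Vmn2r8 to Vmn2r15 it was the end of a longer run, TTTGATCAAAAGTTTTCAGA, that was in 8 of 32851 windows (0.0244%) and in 0 of the 107 windows of other V2r genes. All 8 were these 8 members, and the windows of Vmn2r16 and Vmn2r17, on the other strand, lacked an exact copy of the longer run. Only exact copies were counted, and the Vmn2r16 window held the run but for a changed base just before the word. Because the words were chosen from the members' own windows, these shares are a description.

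Reads on genes ranged from 5106398 to 18640871 per library, with a median of 11461344. Values are the authors' normalized counts, the reads of a gene divided by the size factor of the library. The tissue label matched its markers. Gnao1 had a mean of 1420 to 1900 normalized counts by strain. Summed markers of V2r neurons lay between 9694 and 14825 in all 32 libraries. The SWR libraries (13758 or more) were above those of every other strain (13632 or less). The sum includes the co-receptor gene Vmn2r1, at a mean of 4073 in SWR and 2468 to 2648 in the other strains. Markers of glands varied widely. Their sum reached 161164 in 129 male 1 and 156707 in B6 female 1, against 3473 to 75143 in the other 30 libraries, and markers of ciliated cells were also highest in these 2 libraries. Of the results below, leaving out both libraries took 2 single calls to or under the 2-fold limit, Vmn2r15 in SJL against 129 and Vmn2r12 in SWR against B6 (−0.99), and changed no other call. Between strains, 3 of 3 ciliated cell markers and 2 of 4 gland markers were called lower in SWR than in 129, with sums of ciliated cell markers of 199 to 335 normalized counts in SWR and 94.0 to 4031 in 129. In SJL against 129, 2 of 3 ciliated cell markers and 1 of 4 gland markers were called lower. In SWR against B6, 1 of 3 ciliated cell markers was called lower. Of 4 bone and cartilage markers, Col2a1 and Acan were called higher in SJL than in 129 and in SWR, and Acan also higher in SJL than in B6. The macrophage marker Adgre1 (1 of 3) was called higher in B6 than in 129 and SWR, as was the neutrophil marker S100a8 (1 of 2 tested), which was also higher in SJL than in 129. Of 5 red blood cell markers, 2 were called higher and 1 lower in SJL and in SWR than in 129. Of 3 tested markers of main olfactory neurons, Gnal was called higher in B6 than in the other strains. The sum of the 4 listed olfactory markers went the other way. Its mean was lowest in B6, at 2051 normalized counts, against 2802 in 129, 3432 in SJL and 2410 in SWR. The part of all these markers in the results was not tested. T cell, B cell and muscle markers stayed low, with summed means of at most 17.2 normalized counts in a strain.

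Together the 10 genes took a similar part of V2r reads in B6 and 129 and a smaller part in the SJL and SWR strains. Their share of all V2r reads was 6.75% ± 0.467 (SD, n = 8) in 129 and 6.84% ± 0.285 in B6, against 4.72% ± 0.271 in SJL and 5.97% ± 0.162 in SWR. The range in SJL, 4.409% to 4.997%, lay below those of the other strains. That of SWR, 5.69% to 6.22%, lay below that of B6 (6.42% or more) but overlapped that of 129 (5.98% to 7.28%). Differences in the share were not tested. The make-up of this share differed between strains. In 129, Vmn2r8 (1.89%), Vmn2r11 (1.46%), Vmn2r17 (1.28%) and Vmn2r10 (1.05%) led. In B6, Vmn2r8 (1.88%) and Vmn2r17 (1.43%) led, with Vmn2r9 at 0.864%. In SJL and SWR, Vmn2r17 alone took 1.82% and 2.44% of V2r reads and Vmn2r8 0.0293% and 0.0431%. All V2r genes together drew 7472 ± 1009 RPM (reads scaled by all reads on genes) in 129 and 9943 ± 640 in B6, against 9071 ± 783 in SJL and 9618 ± 596 in SWR.

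**Figure D1:**
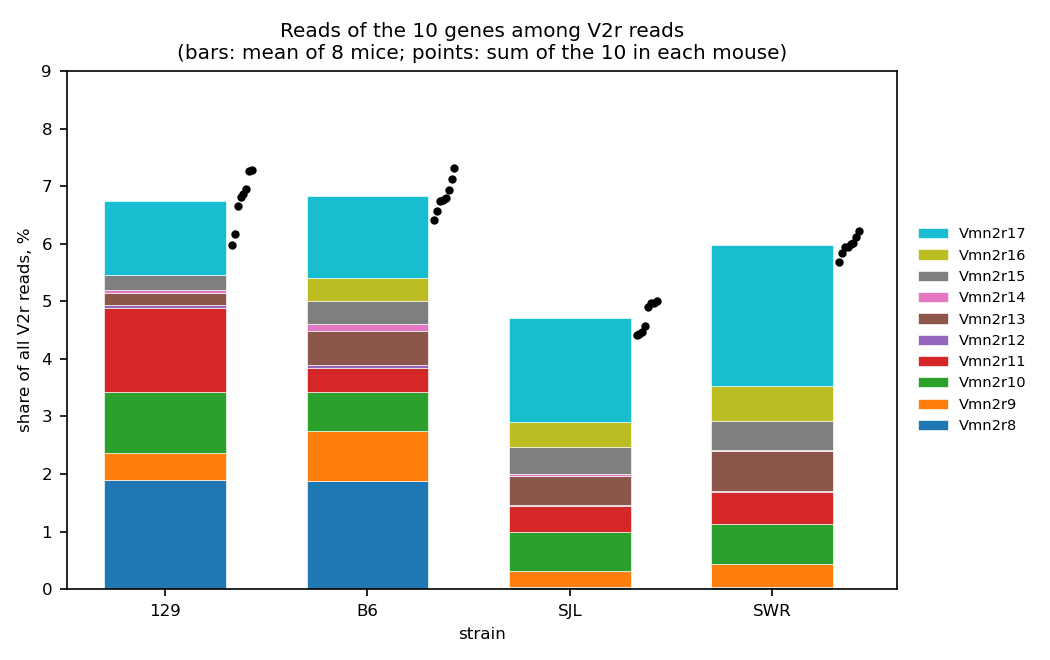
Share of all V2r reads, in percent, taken by each of the 10 genes in each strain. Stacked bars are means of 8 mice and points are the sum of the 10 genes in each mouse. The sum was 6.75% in 129 and 6.84% in B6, against 4.72% in SJL and 5.97% in SWR, with Vmn2r8 making up a visible part only in 129 and B6.

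For levels between genes, normalized counts were divided by coding length in kb. On this scale the order of the 10 genes changed with the strain. Vmn2r8 was the highest in 129 (645 ± 82.6 per coding kb) and in B6 (819 ± 122), and Vmn2r17 in SJL (727 ± 68.8) and SWR (1057 ± 88.0). Vmn2r14 was ninth in every strain, between 10.9 and 52.1 per coding kb. The lowest was Vmn2r16 in 129 (2.62 ± 1.57) and Vmn2r12 in B6 (26.6 ± 6.24), SJL (9.05 ± 4.67) and SWR (12.7 ± 4.70). The first place in each strain was the same with the full exon length in place of the coding length, while places below it moved. By exon length the lowest in SJL and SWR was Vmn2r8 (2.92 and 4.67 per exon kb), below Vmn2r12 (4.89 and 6.90).

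Nearly every member differed between strains. Called genes had a fold change above 2 and an adjusted p under 0.05 in edgeR's quasi-likelihood test, with sex in the model, and the 6 strain pairs share libraries. In at least 1 of the pairs 9 of the 10 genes were called, against 19.8% of all genes tested and 63.1% of the other V2r genes (70 of 111). Vmn2r10 was the exception. With the V2r total as library size 7 members were called in at least 1 pair, without Vmn2r15 and Vmn2r17, and with glmTreat, edgeR's test against the 2-fold limit itself, 8, without Vmn2r12. The size of the range between strain means set 2 genes apart, Vmn2r16 (95.6-fold) and Vmn2r8 (70.4-fold). The other 8 spanned 1.34-fold (Vmn2r10) to 4.79-fold (Vmn2r14). Every call had the same direction in all 4 sets of libraries that share a replicate number.

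**Figure D2:**
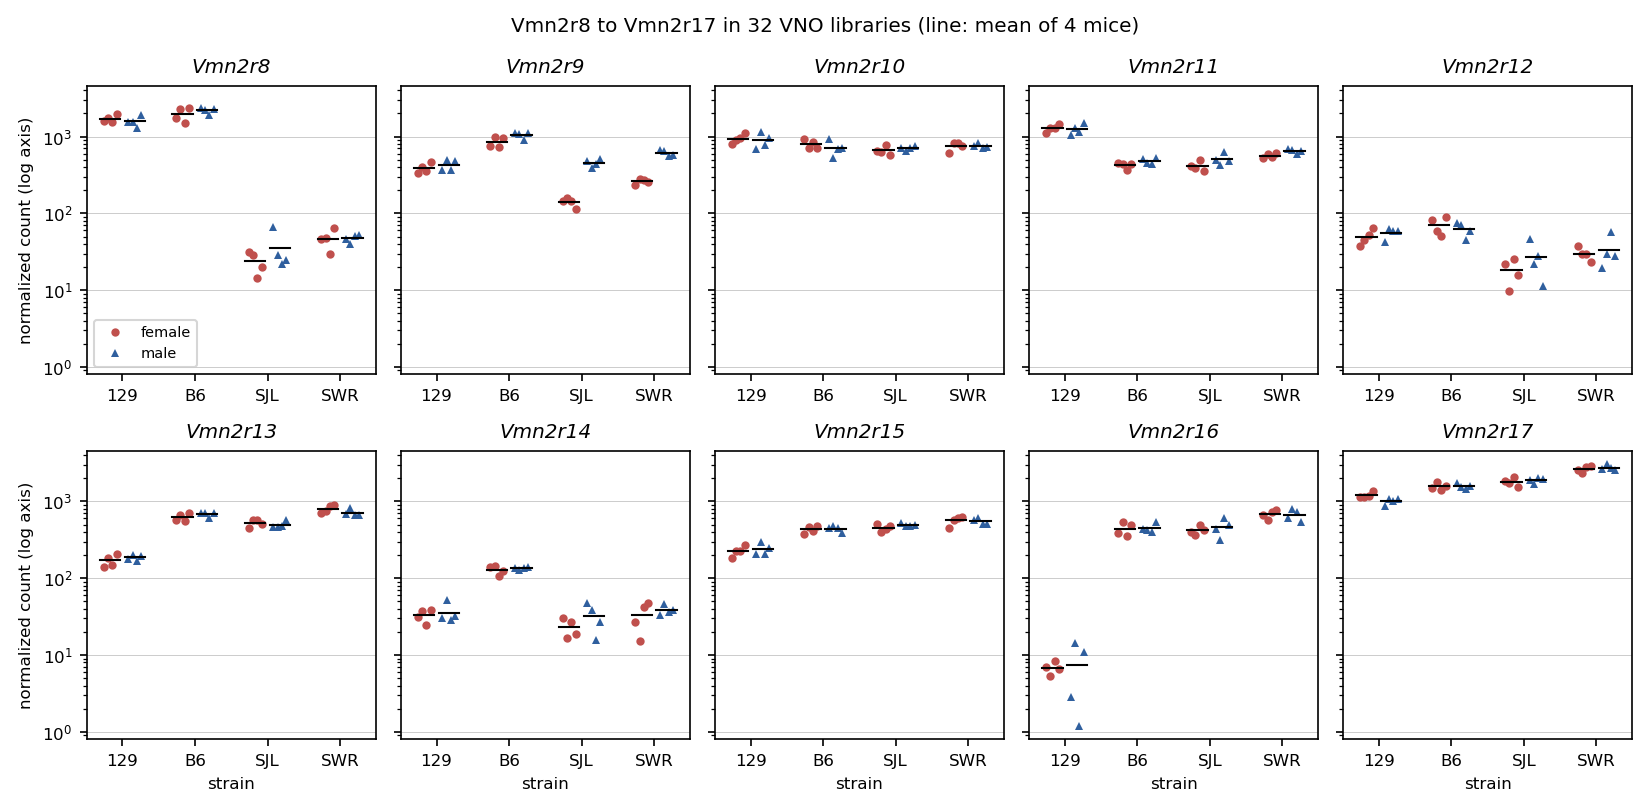
Normalized counts of each gene in each of the 32 libraries, on a log axis, by strain. Circles are females, triangles are males and lines are means of 4 mice. Vmn2r8 stands at 1304 or more in 129 and B6 and at 66.4 or less in SJL and SWR, Vmn2r16 stands at 14.2 or less in 129 and at 311 or more elsewhere, and Vmn2r9 is split by sex in SJL and SWR.

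Vmn2r8 was abundant in 129 and B6 and nearly absent in SJL and SWR. Its lowest, median and highest normalized counts were 1304, 1577 and 1946 in 129 and 1523, 2253 and 2342 in B6. They were 14.2, 26.9 and 66.4 in SJL and 29.2, 47.6 and 64.0 in SWR. The lowest library of the first pair of strains was thus far above the highest library of SJL or SWR. Against B6 the log2 difference was −6.05 ± 0.16 (SE) in SJL (edgeR adjusted p = 8.62e-26) and −5.46 ± 0.15 in SWR (adjusted p = 3.58e-25). Against 129 it was −5.72 ± 0.16 in SJL and −5.12 ± 0.15 in SWR, with adjusted p = 7.35e-25 and 2.14e-24. B6 and 129 overlapped, at a log2 difference of 0.34 ± 0.11 (adjusted p = 0.0133). The reads left in SJL and SWR numbered 10 to 94 per library. Vmn2r9, the nearest relative by coding sequence, kept 101 reads or more in every library of these strains.

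Vmn2r16 had the opposite exception, with few reads in 129. The 8 libraries of 129 held 1 to 13 reads, or 1.19, 6.78 and 14.2 normalized counts as lowest, median and highest. In B6 the same 3 values were 357, 428 and 547. In SJL they were 311, 430 and 611, and in SWR 540, 688 and 789. No library of the other 3 strains came near those of 129. The log2 difference from 129 was 5.95 ± 0.20 in B6, 5.93 ± 0.20 in SJL and 6.54 ± 0.20 in SWR (edgeR adjusted p = 6e-23, 7.76e-23 and 1.75e-24). B6 and SJL did not differ beyond their spread (log2 difference of SJL from B6 −0.02 ± 0.12, adjusted p = 0.928), and SWR was 1.53-fold above SJL.

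Vmn2r9 and Vmn2r14 were highest in B6. Vmn2r9 had 741, 977 and 1125 normalized counts (lowest, median, highest) in B6 and 334, 386 and 500 in 129. In SJL the values were 114, 272 and 514, and in SWR 237, 419 and 674. The lowest B6 library lay above every library of the other strains, and the wide ranges in SJL and SWR followed sex, as described below. Averaged over the sexes, B6 exceeded 129 by 1.20 ± 0.17 on the log2 scale. The differences from B6 on the same average were −1.80 ± 0.18 in SJL and −1.23 ± 0.17 in SWR (edgeR adjusted p = 5.9e-07, 2.96e-10 and 4.78e-07). On that average SWR and 129 did not differ beyond their spread (adjusted p = 0.902). SJL was below 129 by −0.61 ± 0.18 (adjusted p = 0.00764), under 2-fold. By sex these differences were unlike. Male means were 1055 in B6, 614 in SWR, 457 in SJL and 429 in 129, and female means were 862, 262, 140.5 and 392. By these means SWR was above 129 in males and below it in females, and SJL was below 129 in females only. The gap between B6 and SWR was wider in females. Strain differences within a sex were not tested. Relative to the V2r total in place of all reads, the difference of B6 from 129 was 0.87, under the fold limit. With glmTreat the calls of B6 against 129 and of SWR against B6 were lost (adjusted p = 0.581 for both), and that of SJL against B6 was kept.

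Vmn2r14 was a gene of low level throughout. It had 107, 137 and 144 normalized counts in B6, 24.7, 31.8 and 52.5 in 129, 15.8, 27.1 and 48.0 in SJL and 15.2, 37.0 and 47.0 in SWR. Only B6 stood apart, and the other 3 strains overlapped one another. The log2 difference of B6 from 129 was 1.94 ± 0.18 (edgeR adjusted p = 6.22e-11), that of SJL from B6 −2.24 ± 0.18 and that of SWR from B6 −1.89 ± 0.18.

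Vmn2r11 had its highest level in 129. Its lowest, median and highest normalized counts were 1036, 1296 and 1510 in 129, 372, 444 and 530 in B6, 354, 457 and 634 in SJL and 519, 603 and 693 in SWR. Every 129 library was above every library of the other strains. The log2 difference from 129 was −1.49 ± 0.08 in B6, −1.47 ± 0.08 in SJL and −1.08 ± 0.08 in SWR (edgeR adjusted p = 1.35e-16, 1.79e-16 and 4.43e-13). B6 and SJL did not differ beyond their spread (0.02 ± 0.09, adjusted p = 0.873). With glmTreat the call of SWR against 129 was lost.

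Vmn2r13, Vmn2r15 and Vmn2r17 had their lowest level in 129 and their highest in SWR. Vmn2r13 had 138, 183 and 209 normalized counts in 129 (lowest, median, highest), 550, 685 and 714 in B6, 455, 494 and 578 in SJL and 662, 730 and 898 in SWR. It rose over 129 by 1.86 ± 0.09 in B6, 1.5 ± 0.09 in SJL and 2.07 ± 0.09 in SWR on the log2 scale (edgeR adjusted p = 9.59e-19, 4.55e-16 and 3.63e-20). The 129 range stood apart from the 3 others.

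Vmn2r15 had 186, 228 and 296 normalized counts in 129, 382, 448 and 485 in B6, 404, 484 and 526 in SJL and 454, 573 and 629 in SWR. All 129 libraries were again the lowest. SWR exceeded 129 by 1.24 ± 0.08 and SJL by 1.02 ± 0.08 (edgeR adjusted p = 4.7e-15 and 9.74e-13), while B6 at 0.90 ± 0.08 stayed under the fold limit. The call of SJL against 129 sits at the limit. Without 129 female 1 the log2 difference was 0.99, and without 129 male 1 or 129 male 3 it was no longer above the limit either. Relative to the V2r total it was 0.81 for SJL and 0.91 for SWR, both under the limit. With glmTreat the call of SJL was lost and that of SWR kept.

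Vmn2r17, the highest member in SJL and SWR, had its strain means in the order 129, B6, SJL and SWR. Its lowest, median and highest normalized counts were 868, 1106 and 1374 in 129, 1421, 1567 and 1805 in B6, 1562, 1877 and 2063 in SJL and 2364, 2648 and 3077 in SWR. The ranges of B6 and SJL overlapped, and those of 129 and SWR stood below and above them. Only SWR against 129 passed the fold limit (1.27 ± 0.07, edgeR adjusted p = 1.3e-16), and relative to the V2r total this difference was 0.93. B6 exceeded 129 by 0.50 ± 0.07 and SJL exceeded B6 by 0.23 ± 0.07 (adjusted p = 3.67e-07 and 0.00808), both under 2-fold.

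Vmn2r12 was low in every strain and lowest in SJL and SWR. It had 37.2, 55.0 and 64.2 normalized counts in 129 (lowest, median, highest), 45.6, 64.2 and 90.0 in B6, 9.66, 21.9 and 46.6 in SJL and 19.5, 29.2 and 57.5 in SWR. The ranges overlapped in every pair of strains, the called pairs included. SJL was below B6 by a log2 difference of −1.53 ± 0.23 and below 129 by −1.21 ± 0.23 (edgeR adjusted p = 1.27e-06 and 6.12e-05). SWR was below B6 by −1.07 ± 0.22 (adjusted p = 0.000198), a call lost without SWR male 1 (−0.97), B6 female 1 (−0.99) or B6 female 4 (−0.99). With glmTreat none of the 3 calls of Vmn2r12 was kept.

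Vmn2r10 was the even member of the cluster. Its lowest, median and highest normalized counts were 693, 934 and 1144 in 129, 534, 719 and 944 in B6, 569, 684 and 784 in SJL and 611, 754 and 834 in SWR. All 4 ranges overlapped. The log2 differences from 129 lay between −0.43 ± 0.10 in SJL (edgeR adjusted p = 0.000685) and −0.27 ± 0.10 in B6, so that levels below 129 were measured but none reached 2-fold.

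By pair, B6 against 129 gave 5 called members, 4 higher and 1 lower, where 11.1% of all genes tested were called (8.72% higher and 2.4% lower). SJL against 129 gave 6, 3 higher and 3 lower (8.38% of all genes, 5.61% and 2.76%), and SWR against 129 gave 6, 4 higher and 2 lower (7.73%, 4.62% and 3.11%). SJL against B6 gave 4, all lower (7.99% of all genes called, 5.33% lower), and SWR against B6 the same number, all lower (8.05%, 5.53% lower), of which glmTreat kept 2. The other V2r genes were called at 41.4%, 22.5%, 38.7%, 43.2% and 35.1% in these 5 pairs. SWR against SJL gave 0 called members, against 4.5% of all genes and 16.2% of the other V2r genes. All 10 members nevertheless had a higher fitted level in SWR, by 0.15 to 0.61 on the log2 scale, and 7 had an adjusted p under 0.05, against 32.5% of all genes by adjusted p alone. The median log2 difference of the members was 0.50 in that pair, beside −0.007 over all genes and 0.23 over the other V2r genes. Summed V2r neuron markers were also higher in SWR, at 13758 to 14825 normalized counts, against 11006 to 12932 in SJL. The 5 markers include the co-receptor genes Vmn2r1 and Vmn2r2, and the median log2 difference of the 5 was 0.12. Vmn2r1 had a mean of 4073 normalized counts in SWR and 2468 in SJL (log2 difference 0.72), while Gnao1 differed by 0.09. The part of these markers in the result was not tested. In the other pairs, in the order above, 9, 9, 8, 6 and 9 members passed by adjusted p alone, against 52.8%, 38.3%, 41.8%, 45.7% and 40.9% of all genes.

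**Figure D3:**
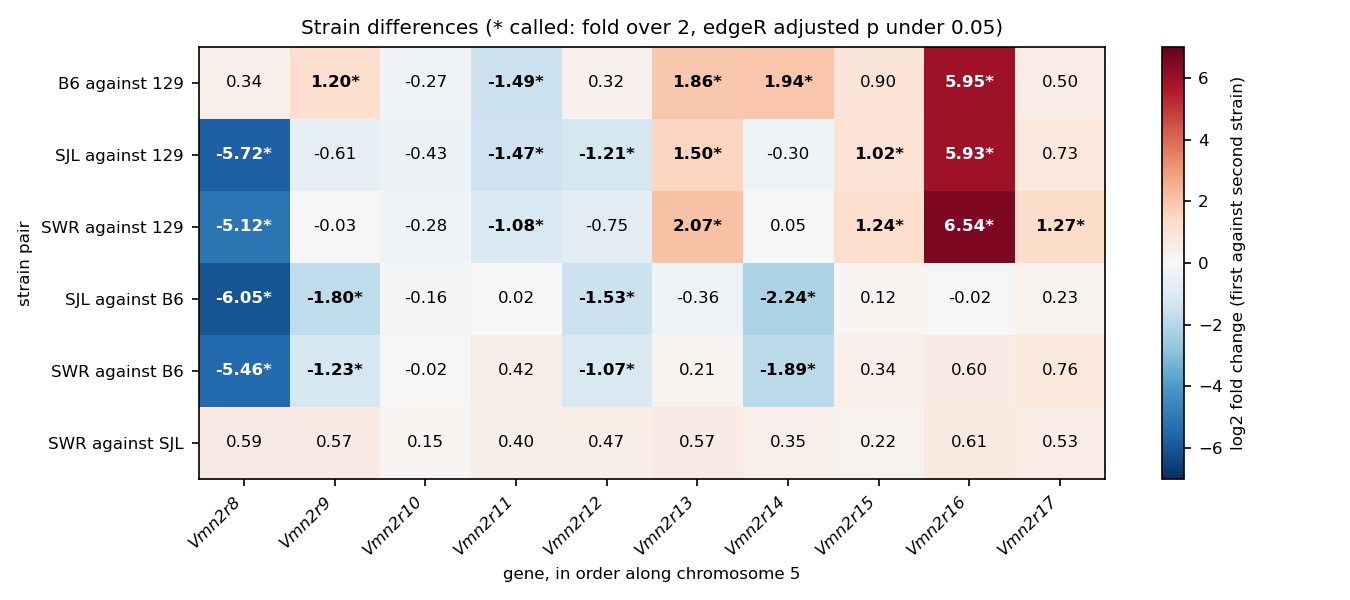
Log2 fold change of each gene (columns, in order along chromosome 5) in each of the 6 strain pairs (rows), red where the first strain is higher and blue where it is lower. Starred values passed the fold limit and the adjusted p. The 2 deepest colours are Vmn2r8, lower in SJL and SWR (−5.12 to −6.05), and Vmn2r16, higher than in 129 (5.93 to 6.54), while the row of SWR against SJL holds 10 pale values of 0.15 to 0.61.

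Over all strains and with strain in the model, none of the 10 genes passed the limits for sex (fold above 2 and adjusted p under 0.01), which 0.0381% of all genes passed. By adjusted p alone 1 did, against 0.141% of all genes. It was Vmn2r9, with a male to female log2 difference of 0.79 ± 0.13 (edgeR adjusted p = 0.000361). The other 9 lay between −0.04 and 0.21, with adjusted p of 0.415 or more.

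Inside single strains the difference in Vmn2r9 was large in SJL and SWR. In SJL the 4 females had 146, 159, 143 and 114 normalized counts and the 4 males 486, 386, 441 and 514. In SWR the females had 237, 279, 273 and 260 and the males 674, 646, 559 and 577. In both strains the lowest male was more than 2-fold above the highest female. In B6 the females had 753, 984, 741 and 970 and the males 1110, 1089, 895 and 1125, and in 129 the females had 334, 400, 360 and 474 and the males 372, 500, 362 and 480. In these 2 strains the sexes overlapped.

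The male to female log2 difference of Vmn2r9 was 1.70 ± 0.13 in SJL and 1.22 ± 0.13 in SWR (edgeR adjusted p = 3.14e-10 and 1.3e-07). It was 0.30 ± 0.12 in B6 and 0.13 ± 0.12 in 129 (adjusted p = 0.468 and 0.847). Vmn2r9 was the 1 member of 10 called in SJL, where 0.0544% of all genes were called, and in SWR, where 0.0816% were. No member was called in B6 (0.0544% of all genes) or 129 (0.0381%). With glmTreat the call was kept in SJL and lost in SWR. Within the replicate-numbered sets the difference ran from 1.28 to 2.16 in SJL and from 1.03 to 1.5 in SWR. Of the 111 other V2r genes tested, 1 was called in SJL (Vmn2r98, 1.21, named after its value was seen) and 0 in SWR.

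The dependence of the sex difference on strain was tested directly. The test of the 3 interaction terms called 3 of 18382 genes (0.0163%), and Vmn2r9 was first among them (edgeR adjusted p = 1.11e-05). The sex difference in SJL exceeded that in 129 by 1.57 ± 0.18 and that in B6 by 1.40 ± 0.18 on the log2 scale (adjusted p = 2.19e-05 and 0.000159). The one in SWR exceeded that in 129 by 1.09 ± 0.18 (adjusted p = 0.0125) and that in B6 by 0.92 ± 0.17 (adjusted p = 0.0697). SJL and SWR were not told apart (−0.48 ± 0.18, adjusted p = 0.888).

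Measures of V2r neurons as a whole differed between the sexes of SJL and SWR by less than the SD within a sex. The V2r total was 9111 ± 870 RPM in SJL females and 9030 ± 818 in males, and 9663 ± 576 in SWR females and 9574 ± 701 in males. Summed V2r neuron markers were 11710 ± 842 and 11606 ± 581 normalized counts in SJL females and males, and 14062 ± 427 and 14223 ± 438 in SWR. Vmn2r8, the nearest relative, had a sex difference of 0.58 ± 0.33 in SJL (adjusted p = 0.82) and 0.00 ± 0.28 in SWR, at 10 to 94 reads per library. Ranges of males and females also stood apart for Vmn2r17 in 129 (−0.26 ± 0.09, edgeR adjusted p = 0.5). It was the 1 member with separate ranges in 129, where 3.36% of all genes had them, and B6 had 0 such members (3.13% of all genes). SJL (3.91%) and SWR (6.69%) had 1 each, Vmn2r9.

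**Figure D4:**
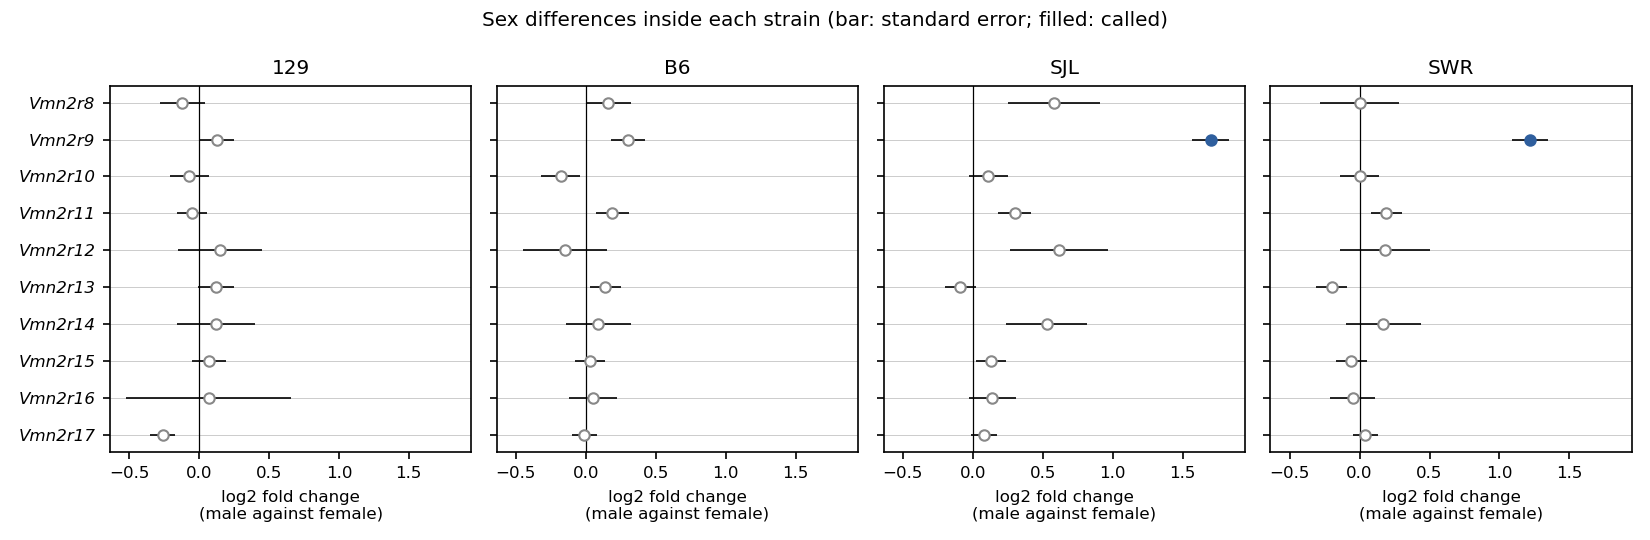
Male to female log2 fold change of each gene in each strain, with bars of 1 standard error and filled points for called genes. Vmn2r9 in SJL (1.70) and SWR (1.22) are the filled points, and the widest bars belong to genes of few reads, such as Vmn2r16 in 129.

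Of the 10 tested genes on either side of the cluster, 7 of 20 (35.0%) were called in at least 1 strain pair, where 19.8% of all genes tested were called. Tmed11, a member of the p24 family of cargo receptors of the early secretory pathway, lies at chr5:108777235-108795363, on the strand of Vmn2r8, and overlaps its end. Its normalized counts were 13.1, 25.8 and 33.0 in 129 (lowest, median, highest) and 17.9, 31.7 and 46.1 in B6, but at most 2.12 in SJL and 0.899 in SWR. It thus shared the strains in which Vmn2r8 was low, and reads in the shared stretch cannot be assigned to 1 of the genes. The antisense gene Gm20629 across Vmn2r9 had at most 4.16 normalized counts in any library.

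Between the members, 2 further genes passed the filter, and both were called. Vmn2r-ps21, a pseudogene next to Vmn2r9, had a mean of 14.3 ± 3.42 normalized counts in 129, 10.9 ± 6.31 in SJL and 11.5 ± 2.77 in SWR, and 3.70 ± 1.97 in B6, where Vmn2r9 was highest. Gm7171, a pseudogene between Vmn2r16 and Vmn2r17, had 10.03 ± 3.22 in 129 and 30.2 ± 13.2 in B6, against 39.1 ± 8.96 in SJL and 42.6 ± 10.04 in SWR. It was lowest in the strain in which both of its neighbours were lowest.

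Of the genes that work beside the receptors, co-receptor and signalling genes are read against the 19.8% of all genes called in at least 1 strain pair. All 7 family C co-receptor genes were tested, and 1 was called in any pair. That gene, Vmn2r5, had 217 ± 44.3 normalized counts in B6 and 710 ± 96.9 in 129, 922 ± 93.4 in SJL and 487 ± 40.4 in SWR. Of 11 tested genes of V2r signalling and trafficking, 2 were called. Kcnj3, which encodes a G protein-gated potassium channel subunit, was lower in B6 (18.9 ± 4.56) than in 129 (87.04 ± 7.96), SJL (95.6 ± 14.7) and SWR (162 ± 17.4), and Plcb2, a phospholipase C gene, was lower in 129 (92.0 ± 15.2) than in B6 (190 ± 24.5) and SWR (185 ± 15.7). The channel gene Trpc2 was listed at 0 in every library, and the overlapping entry Xntrpc held 715 to 1213 normalized counts as strain means, so the 2 entries cannot be told apart. No gene of the V2r or the V1r neuron marker lists was called in any strain pair.

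The H2-Mv genes included both called and uncalled members. Of 9 tested, 6 were called in at least 1 strain pair, where 19.8% of all genes and 63.1% of the other V2r genes were called. The 6 were H2-M1, H2-M9, H2-M10.2, H2-M10.3, H2-M10.4 and H2-M10.5. H2-M10.4 had 682 ± 103 normalized counts in 129 and 1595 ± 153 in B6, against 553 ± 67.9 in SJL and 1759 ± 179 in SWR. H2-M1 differed between SWR (1247 ± 138) and SJL (454 ± 64.1), the pair in which no member of the cluster was called.

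Within groups of strain and sex, the members did not move as a block. Log2 levels of the 32 libraries were centred within each such group. Pearson's r between pairs of members then had a median of 0.34 over 45 pairs. It ran from −0.12 (Vmn2r8 with Vmn2r10) to 0.73 (Vmn2r9 with Vmn2r13). Pairs of other V2r genes had a median of 0.37 over 6105 pairs. The libraries share a scaling and a tissue, and gene pairs are not independent, so these values only describe. For the genes most like a member, levels were centred within strain only, with both sexes kept, so these r are on another footing. The most alike genes were picked for the highest r among all genes tested, so their r is high by choice. The gene most like Vmn2r17 over the same libraries was Rsrc1 (r = 0.86). The one most like Vmn2r11 was Snx5 (0.80). Those most like Vmn2r16 were the co-receptor Vmn2r3 and, at the same rounded r, Tcea1 (0.75). For Vmn2r9 these were Cd9 (0.81), Vmn1r226 (0.78) and the Y-linked Ddx3y (0.78). The remaining members had most alike genes at r = 0.63 to 0.72.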

How the data were processed

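VNO epithelium of 32 individual mice was measured by RNA-seq, 4 males and 4 females of each of 4 strains. Per the labels and the methods of the study, the authors prepared stranded, ribosome-depleted total RNA libraries, trimmed the reads with Trim Galore, placed them on GRCm38 (mm10) with STAR using the Ensembl annotation, kept uniquely placed reads and counted those on the sense strand of each gene. They deposited a table of raw counts per gene and a table of normalized counts (signal scale). The deposited normalized counts were each library's counts divided by 1 constant per library, as DESeq2 size factors give, with a largest relative deviation of 1e-14 within a library.

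Counts as deposited were tested with edgeR 4.0.16 (R 4.3.3): TMM scaling, filterByExpr over the 8 groups (18382 genes kept), a quasi-likelihood F test, and Benjamini-Hochberg adjustment over all genes tested of each comparison. Strain pairs were fitted with sex as a covariate and called at a log2 fold change above 1 and an adjusted p under 0.05. Sex over all strains was called with an adjusted p under 0.01 and the same fold limit, and sex within a strain, from a model of the 8 group means, at 0.05. Whether the sex difference depended on strain was tested with 3 interaction terms together, at 0.05. A standard error is the absolute log2 fold change divided by the square root of F. Levels are means ± SD over mice of the normalized counts. Correlations between genes used log2(normalized count + 1). For pairs of V2r genes it was centred within each group of strain and sex, and for the most alike genes within strain. DESeq2 1.42.0 and other settings were run as alternatives. The scripts were tested on simulated data.

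The 10 genes, the gene lists and the tests were chosen with earlier results of these data known. All 10 genes are named, list genes and genes beside the cluster are named where they were called or bear on a member, and for likeness the 3 genes of highest r per member were taken. Coordinates and coding lengths are from GENCODE on the same build, and upstream bases from RefSeq on GRCm38.p6, where all 10 genes were matched by symbol. The RefSeq and GENCODE starts differ by 86 to 325 bases, so bases between them are not shown. Coding sequences were aligned with mafft 7.526. The libraries carry a number from 1 to 4 in their labels, 1 of each number in each group. Same-numbered libraries of different groups did not deviate together (median r = −0.019 over 112 pairs, against 0.007 over 336 pairs of different number), so they were not paired. Replicates came from separate mice, and all 48 replicate pairs differed by more than sampling noise (chi-square per degree of freedom of 2.85 to 50.9). Depth was 5106398 to 18640871 reads on genes per library, and low counts, such as 1 to 13 reads of Vmn2r16 in 129, have counting error of their own.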

Additional observations from a re-analysis of the deposited data

Results flagged for a closer look

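Chance marks about 1 in 20 groups of 4 when the gap of the highest or lowest mouse to the nearest other is set against the range, and 6 of 80 groups of a gene, strain and sex were marked here. Vmn2r8 in SJL male 1 was 66.388 normalized counts, against 21.67 to 28.7786 in the other 3 males. Vmn2r9 in B6 male 3 was 894.529, below 1089 to 1125.3 in the others. Vmn2r11 in B6 female 3 was 371.87, below 441.035 to 446.6. Vmn2r13 in SWR male 2 was 821.663, above 661.532 to 676.927, and in B6 male 3 it was 603.452, below 698.545 to 713.619. Vmn2r14 in 129 male 2 was 52.4524, above 28.5909 to 32.105. B6 male 3 was thus marked for both Vmn2r9 and Vmn2r13.

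The sex difference of Vmn2r9 differed between strains by the interaction test (edgeR adjusted p = 1.11e-05), with log2 differences of 1.70 in SJL, 1.22 in SWR, 0.30 in B6 and 0.13 in 129. Males were higher than females of the same replicate number in 4 of 4 sets in each of these strains. The numbers do not pair the mice, and the smallest of these log2 gaps in 129 was 0.01. The sex difference was not called in B6 or 129 (edgeR adjusted p = 0.468 and 0.847).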

How the results depend on the processing

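No value reversed under any alternative. Over the 27 single strain and sex calls, 1085 of 1105 alternative values kept the call. These values include the main fit read by adjusted p alone, which cannot lose a call. Most of the rest are fits without a single library, which share nearly all their data with the main fit. With adjusted p alone, called members numbered 9 for B6 against 129, 9 for SWR against B6, 7 for SWR against SJL and 1 between the sexes. With glmTreat, a test against the 2-fold limit itself, members called were 8 for any pair, 4 for B6 against 129, 4 for SJL against 129, 5 for SWR against 129, 3 for SJL against B6 and 2 for SWR against B6. The calls lost were Vmn2r9 in B6 against 129 and in SWR against B6 (adjusted p = 0.581 for both), Vmn2r11 in SWR against 129, Vmn2r15 in SJL against 129, Vmn2r12 in SJL against 129, SJL against B6 (adjusted p = 0.0759) and SWR against B6, and the Vmn2r9 sex difference in SWR (1.22), with adjusted p = 1 where none is given. With each library left out in turn, counts were 9 to 9 for any pair, 5 to 5 for B6 against 129, 5 to 6 for SJL against 129, 6 to 6 for SWR against 129, 4 to 4 for SJL against B6, 3 to 4 for SWR against B6, 0 to 0 for SWR against SJL and between the sexes, and 1 to 1 for sex within a strain and for the interaction. Scaling to the V2r total shifted the log2 differences of the members by a median of −0.34 for B6 and for SWR against 129. The median shift was −0.22 for SJL against 129, 0.12 for SJL against B6 and −0.11 for SWR against SJL. This scaling left 4, 5 and 5 members called in the 3 pairs with 129 in place of 5, 6 and 6. For any pair it left 7 in place of 9. The adjusted p of the Vmn2r9 interaction lay between 1.77e-16 and 4.96e-05. The replicate block, with the label number as a term, gave 5 called members for B6 against 129 and changed no single call. The same held for DESeq2, its size factors used in edgeR, separate fits of each pair and leaving low counts unfiltered.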
